A study of Mus musculus with 8 samples.

Results

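The genes examined here encode the proteins of the cytoplasmic ribosome. They were chosen by symbol alone: every symbol in both gene tables of the series that is Rpl or Rps followed by a digit, or Rplp0, Rplp1, Rplp2 or Rpsa, without names ending in -ps, the Rps6k kinases and Rps19bp1. This rule gave 84 of 28793 symbols, 51 of the large subunit and 33 of the small subunit, each with 1 row in each table. Values are FPKM, which scale fragments by transcript length and by the mapped fragments of the library. A gene counts as measured in a pair where one of its libraries reaches 1 FPKM. In both pairs 81 of the 84 were measured, and the other 3 (Rpl10l, Rpl3l and Rpl39l) stayed below 1 FPKM in all 4 libraries.

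The study addressed how regulators of canonical Wnt signalling govern hair follicle stem cells in mouse back skin. Its 4 RNA sequencing libraries form a pair of comparisons with 1 library in each group. The first sets cKO cells (K15CrePGR;Ctnnb1fl/fl; Rosa-YFPfl/stop/fl) against Het cells (K15CrePGR;Ctnnb1+/fl; Rosa-YFPfl/stop/fl), both from female C57BL6/129Sv mice of day 99. Ctnnb1 encodes β-catenin, the Cre in both groups is driven by a K15 promoter, named for a keratin of the bulge, and fused to a progesterone receptor, and both groups carry the YFP reporter. For this pair 1 label names resting skin (telogen) and another the onset of growth (anagen). The second comparison sets LacZ(+) against LacZ(-) bulge cells of male C57BL6 mice of day 24, taken as follicles passed from telogen to anagen. All of these mice were heterozygous for a LacZ reporter in Axin2 (Axin2LacZ/+), a Wnt target gene, and the cells were sorted by that reporter. The sources used here do not say whether a library came from 1 mouse or from several. The other 4 of the 8 samples, chromatin immunoprecipitation libraries and their input, were not analysed here.

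Each cytoplasmic ribosome carries these proteins in fixed proportions, with the Rps proteins and Rpsa around the small ribosomal RNA and the Rpl and Rplp proteins around the large ones. Their genes are spread over the genome, are transcribed in nearly all cells and yield some of the most abundant mRNAs. The mRNAs typically begin with a C followed by a run of C and T, the 5′ terminal oligopyrimidine (TOP) sequence, through which mTOR signalling and Larp1 adjust their translation. In hair follicle stem cells, protein synthesis is known to be low at rest and to increase when the follicle enters growth.

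The start sites of some members described later are printed first, with 15 bases before the annotated start and 15 from it onward, from RefSeq on GRCm38.p6. Capitals mark the unbroken run of C and T that begins with C at the annotated start. Rps15a, the member with the highest mean level, lies at chr7:118116133-118116162 on the minus strand. Rpl35, the single member past 2-fold, lies at chr2:39005117-39005146 on the minus strand. Rpl38 lies at chr11:114668565-114668594 on the plus strand. Rps27, at chr3:90213634-90213663 on the minus strand, is shown beside its paralog Rps27l, at chr9:66946071-66946100 on the plus strand, which also has a second annotated start that is not printed. Rpl22l1, the paralog of Rpl22, lies at chr3:28805493-28805522 on the plus strand.
Rps15a: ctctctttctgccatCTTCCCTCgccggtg
Rpl35: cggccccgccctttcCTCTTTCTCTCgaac
Rpl38: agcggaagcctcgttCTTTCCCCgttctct
Rps27: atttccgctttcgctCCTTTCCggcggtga
Rps27l: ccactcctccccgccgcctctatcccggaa
Rpl22l1: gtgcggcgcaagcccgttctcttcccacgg
The annotated starts of Rps15a, Rpl35, Rpl38 and Rps27 sit on such a run, and those of Rps27l and Rpl22l1 do not. Nor do those of the abundant members Rps24, Rpl13a and Rps15, which are not printed. However, 1 of the 2 annotated starts of Rps24 is a T inside a C and T run of 9 bases. Rpl15, also not printed, has the longest such run of the members, at 13 bases.

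RefSeq promoter windows, 250 bases before to 50 after a start, were matched for 62 of the 84 members by symbol. An annotated start at C in a run of 5 or more C or T was present in 13 of the 62 (21.0%), against 813 of 27025 genes with a window (3.01%). A start anywhere inside such a run was present in 20 of 62 (32.3%), against 11.8% of all genes. Of 4 motifs searched on both strands of the whole window, none of which contains another, CCGGAA (the ETS core) was in 33 members (53.2%, against 16.7% of all genes). GGGCGG (the Sp1 core) was in 38 (61.3%, against 38.2%) and AAGATGG (the YY1 core) in 10 (16.1%, against 7.28%). TATAAA was in 7 (11.3%, against 15.7%). These are matches of letters to annotated starts, not sites shown to be used in these cells.

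Ctnnb1 and Axin2 check the labels. Ctnnb1 stood at 370 FPKM in the cKO library and 251 in the Het library, so its whole-gene level does not follow the deletion, and the values do not say which exons the fragments came from. Axin2 stood at 2.12 FPKM in the cKO and 16.3 in the Het library, with 19.0 in the LacZ-positive library against 9.10 in the LacZ-negative one. All 8 bulge markers looked at reached 1 FPKM, with sums of 8947 in cKO, 7525 in Het, 6699 in LacZ-positive cells and 1165 in LacZ-negative ones, where Krt15 was listed at 0. An exact 0 beside 5951 to 7528 FPKM in the other libraries can be a failed estimate, so Krt15 is described there only as listed at 0. Without it the other 7 bulge markers summed to 1419 in cKO, 1317 in Het, 748 in LacZ-positive cells and 1165 in LacZ-negative ones, so the order of the LacZ libraries turns. Endothelial markers summed to at most 0.324 FPKM in any library, and leukocyte markers to at most 8.20 FPKM. Fibroblast markers reached 23.0, melanocyte markers 17.9, and muscle, fat and blood markers 20.5 FPKM. Because FPKM keep no read counts, the depth of the libraries is unknown, and with 1 library per group no difference here has a test or a replicate check.

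The ribosomal protein genes were among the most abundant mRNAs of every library. Their summed level was 66225 FPKM in cKO, 59021 in Het, 61529 in LacZ-positive cells and 76877 in LacZ-negative ones, or 6.21%, 5.39%, 6.14% and 5.80% of all FPKM. Without mitochondrial and small RNA names in the total, apart from mmu-mir names, which stayed in, the shares were 10.0%, 9.54%, 10.3% and 10.5%. The highest share was that of the LacZ-negative cells on the second basis and that of the cKO cells on the first, so the order of the libraries depends on what the total holds. Between 72 and 73 members reached 100 FPKM in a library, and between 23 and 27 were among its 100 most abundant genes. In bulk samples fewer cells of a type and less RNA per cell cannot be told apart.

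Levels of single members covered a wide range. The 5 with the highest mean were Rps15a, Rps24, Rpl13a, Rps15 and Rplp1, which together held 17.8% of the ribosomal protein FPKM in cKO, 17.9% in Het, 19.0% in LacZ-positive cells and 18.7% in LacZ-negative ones. Rps15a, a small subunit protein, stood at 2605 FPKM in cKO, 2206 in Het, 2898 in LacZ-positive cells and 3311 in LacZ-negative ones. Rps24, also of the small subunit, stood at 2641, 2352, 2576 and 3384 FPKM in the same order. These genes ranked first and second in every library, and which of them was first varied. The median small subunit gene stood at 978 FPKM in cKO, 872 in Het, 938 in LacZ-positive cells and 1117 in LacZ-negative ones, and the median large subunit gene at 560, 497, 449 and 563. The small subunit genes held between 52.2% and 52.6% of the members' FPKM, a share that moved by less than 1 percentage point over the 4 libraries.

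Among measured members the lowest mean levels were those of Rps4y2, Rpl29, Rpl21, Rpl7l1 and Rpl7a. Rpl21, a large subunit protein, stood at 16.6 FPKM in cKO, 17.1 in Het, 17.8 in LacZ-positive cells and 24.1 in LacZ-negative ones. Rpl7a, also of the large subunit, stood at 39.5, 37.7, 40.0 and 50.1 FPKM in that order. Rpl31 was the next above these, at 63.4, 62.9, 59.5 and 73.3 FPKM. Rpl10l stood at 0 in all 4 libraries, Rpl3l reached at most 0.026 FPKM and Rpl39l at most 0.128. These 3 are copies known mainly from testis (Rpl10l and Rpl39l) and striated muscle (Rpl3l). Across members, log2 levels correlated with Pearson's r of 0.995 between cKO and Het and 0.999 between the LacZ libraries, and with 0.975 to 0.984 between libraries of different pairs. Those are correlations across genes that share libraries, gene lengths and the counting of reads.

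**Figure D1:**
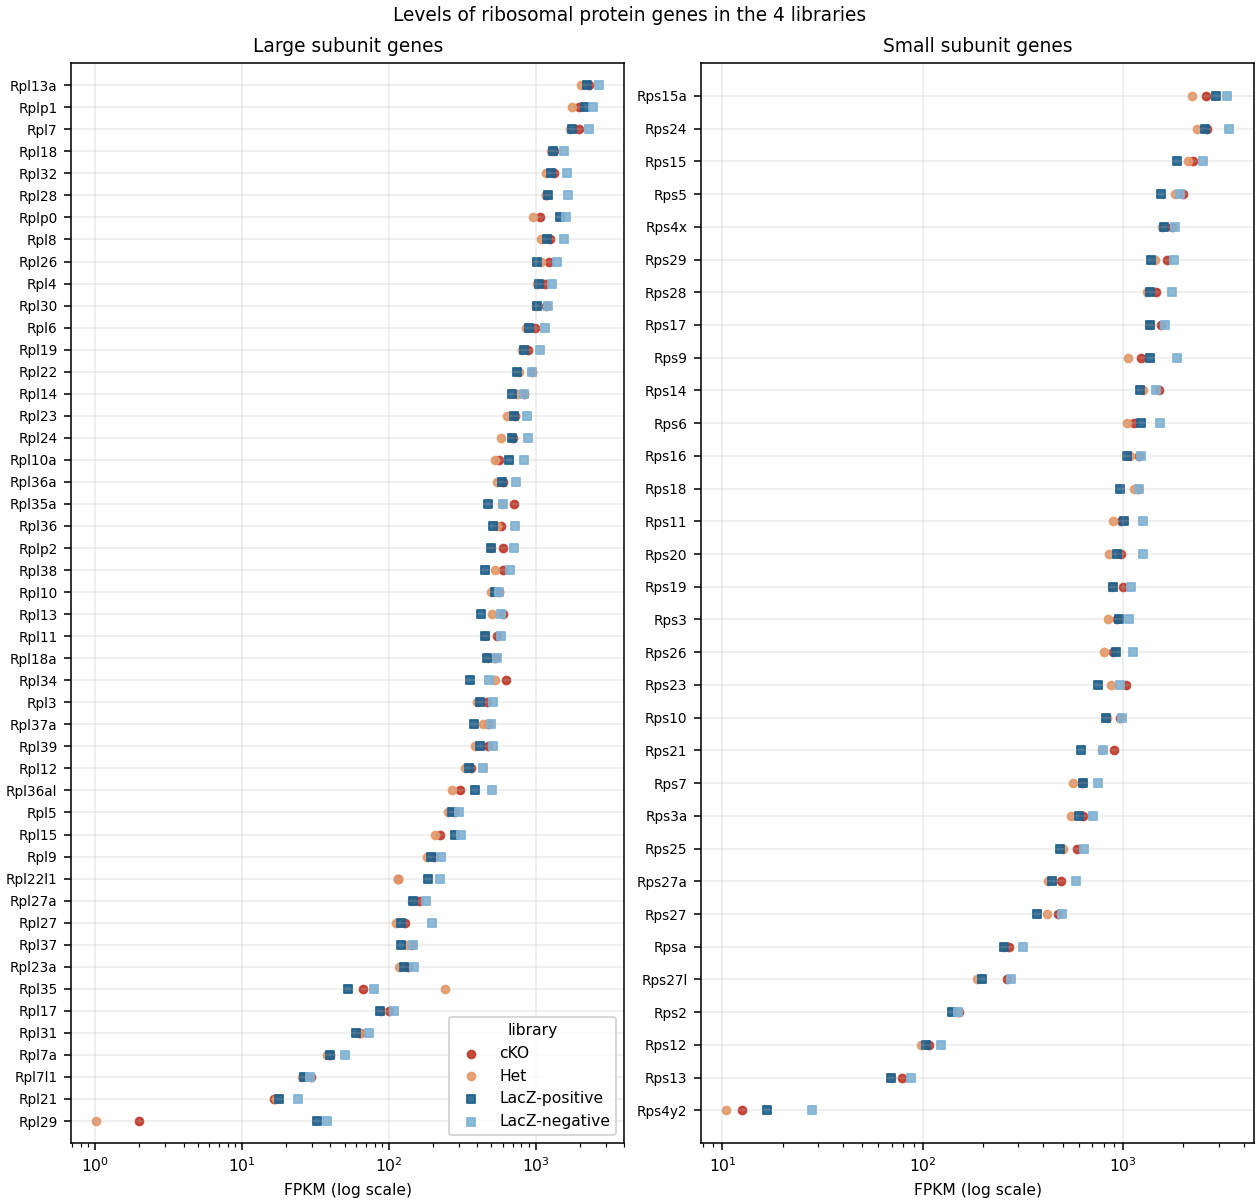
Levels of the measured ribosomal protein genes reported singly, in FPKM (log scale) in the 4 libraries, with large subunit genes on the left and small subunit genes on the right, each sorted by mean level. Points of 1 gene lie close together next to the range between genes, apart from Rpl35, where the Het library stands at 240.2 FPKM, and Rpl29, where cKO and Het stand at 2.00 and 1.02 FPKM.

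In cKO cells the ribosomal protein genes were slightly higher than in Het cells, together and by a similar amount. The difference in log2 of (FPKM + 1), cKO over Het, was above 0 in 78 of the 81 measured members, against 60.9% of 13014 genes measured. The median member differed by 0.17, with 5% to 95% of members between 0.01 and 0.29, beside a median of 0.06 for all measured genes. None was higher by 2-fold or more (1.8% of all genes were) and 1, Rpl35, was lower by 2-fold or more (2.29% of all genes were). Besides Rpl35, the members below 0 were Rpl21 and Rpl28, 3 in all, against 39.1% of all genes. The median was 0.18 for the 48 measured large subunit genes and 0.17 for the 33 small subunit genes, and all 33 of the latter were higher. The summed level was 1.12 times higher, a log2 ratio of 0.17.

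The size of this difference was that of other abundant genes, but its spread was narrower than theirs. For 617 other genes that reached 100 FPKM in cKO or Het, without -ps, small RNA, Gm and Rik names, the median difference was also 0.17. Small RNA names that begin with mmu-mir were not removed. Within 0.1 of their own median lay 66 of 81 members (81.5%), against 261 of the 617 other genes (42.3%). Within 0.2 lay 77 members (95.1%), against 415 (67.3%). Some related lists described below were nearly as narrow. The width from 5% to 95% was 0.27 for members, 0.30 for RNA polymerase I and III genes and 0.33 for initiation factor genes. It was 0.42 for ribosome biogenesis, 0.46 for elongation and 0.51 for mitochondrial ribosomal protein genes. After centring on the median (0.07) of 9396 genes that reached 5 FPKM in cKO and in Het alike, 71 members lay above 0 (47.6% of all genes did), with a median of 0.11. The 10 below it (52.4% of all genes were) included Rpl35, Rpl21, Rpl28, Rpl22l1, Rpl31, Rps2, Rpl18, Rps18 and Rpl7a. With FPKM rescaled to a total without mitochondrial and small RNA names, 67 members were higher (44.4% of all genes were), and the median was 0.08, beside -0.03 for all genes.

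The 4 suprabasal markers, all at 1 FPKM or more, summed to 637 FPKM in cKO and 607 in Het cells. The 4 leukocyte markers, 2 of which reached 1 FPKM, summed to 8.20 and 4.92, and the 4 fibroblast markers, 2 of which reached 1 FPKM, to 23.0 and 14.7, with Lum listed at 0 in Het. Their part in the shift of the ribosomal protein genes was not tested.

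Rpl35 differed in cKO over Het far more than the other members, and downward. This large subunit protein sits near the exit of the tunnel through which the nascent chain leaves the ribosome. Its gene (ENSMUSG00000062997, mm9 chromosome 2, 38852232 to 38861688) stood at 67.0 FPKM in cKO, 240.2 in Het, 52.5 in LacZ-positive cells and 78.7 in LacZ-negative ones, a log2 difference of -1.83 in the first pair. Its share of the summed ribosomal protein FPKM was 0.101% in cKO, 0.0853% in LacZ-positive cells and 0.102% in LacZ-negative ones, but 0.407% in Het. The library that stands apart is therefore Het, where Rpl35 ranked 63rd among the members, against 75th, 76th and 75th in the others. The interval given for Rpl35 is shared with 2 other rows, Wdr38 and Gm13496, and Wdr38 stood at 0.567, 0.420, 0.215 and 0.427 FPKM in the order cKO, Het, LacZ-positive and LacZ-negative. Rpl35 begins with the longest C and T run of the sequences printed, and its difference kept its direction under the 3 other scalings. The tables hold no -ps row named for Rpl35 and do not show whether reads of a copy were assigned to it differently in Het, which was not tested.

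Beyond Rpl35, few members left the narrow band. Rps27l, a paralog of Rps27 known as a target of p53, stood at 264 FPKM in cKO and 187 in Het cells (log2 difference 0.50). Rpl29, a basic large subunit protein, stood at 2.00 in cKO and 1.02 in Het, a difference of 0.57 that rests on about 1 FPKM. Rpl22, an RNA-binding large subunit protein, stood at 948 and 766 FPKM (0.31), and Rpl39, a small protein that lines the exit tunnel, at 475 and 384 (0.31). Rpl35a, mutated in some patients with Diamond-Blackfan anaemia, stood at 717 and 588 (0.29). The members nearest to 0 or below it besides Rpl35 were Rpl21 at 16.6 and 17.1 FPKM (-0.04), Rpl28 at 1177 and 1180 (-0.004), Rpl22l1 at 115.4 and 114.6 (0.01) and Rpl31 at 63.4 and 62.9 (0.01).

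In the second pair the direction was the opposite as deposited: all 81 measured ribosomal protein genes were lower in LacZ-positive than in LacZ-negative cells, against 63.4% of 13283 genes measured, and 0 were higher, against 36.6%, but 32 of the 81 were higher, against 63.9% of all genes, once FPKM were rescaled to a total without mitochondrial and small RNA names. The median log2 difference was -0.32 as deposited, with 5% to 95% of members between -0.53 and -0.15, beside -0.13 for all genes. No member passed 2-fold in either direction, where 4.67% of all genes were higher and 2.6% lower by that much. The medians of the subunits were -0.32 (large) and -0.31 (small). The summed level in LacZ-positive cells was 0.80 times that in LacZ-negative cells, a log2 ratio of -0.32. The FPKM of all genes summed to 0.756 times as much in LacZ-positive cells (log2 ratio -0.40), so the members' share of all FPKM was higher there, at 6.14% against 5.80%.

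The scaling matters here because it moves the median of all genes as well, from -0.13 as deposited to 0.04 when centred, -0.01 with upper-quartile scaling and 0.13 when rescaled. Under these the members' median was -0.15, -0.18 and -0.03, below that of all genes each time. Of the members 75 lay below the median (-0.17) of 9252 genes that reached 5 FPKM in both LacZ libraries (45.8% of all genes did). The 6 above it (54.2% of all genes were) were Rpl10, Rps2, Rpl15, Rpl7l1, Rplp0 and Rpl5. The 738 other genes that reached 100 FPKM here had a median of -0.33, close to that of the members. Within 0.1 of their own median lay 56 of 81 members (69.1%), against 176 of 738 other abundant genes (23.8%). Within 0.2 lay 73 (90.1%), against 340 (46.1%). The width from 5% to 95% was 0.38 for members and for the 8 measured elongation genes alike. It was 0.54 for initiation factor, 0.60 for mitochondrial ribosomal protein, 0.61 for RNA polymerase I and III and 0.85 for ribosome biogenesis genes.

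**Figure D2:**
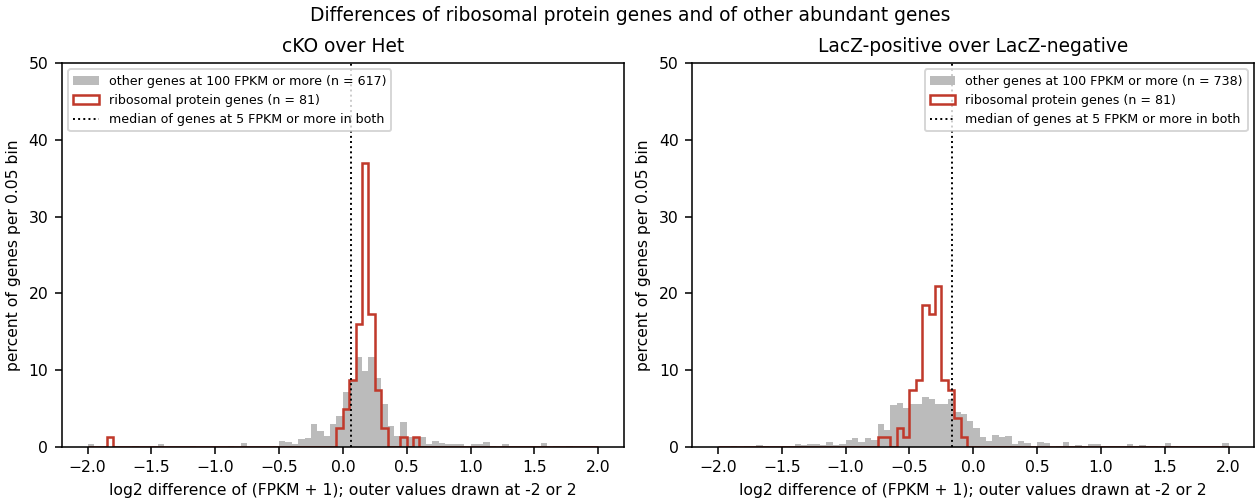
Share of genes (percent per bin) by log2 difference of (FPKM + 1) for the 81 measured ribosomal protein genes (red outline) and for other genes at 100 FPKM or more (grey), in cKO over Het on the left and LacZ-positive over LacZ-negative on the right. In both, the 2 sets have nearly equal medians (0.17 and 0.17; -0.32 and -0.33) while the ribosomal protein genes lie in a narrower band; on the right the side of 0 depends on the scaling, with 32 members above 0 after rescaling.

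Several cell type markers differed within this pair as well. The 4 suprabasal markers, all at 1 FPKM or more, summed to 1975 FPKM in LacZ-positive cells, against 827 in LacZ-negative cells. Of the 8 bulge markers Krt15 was listed at 0 in LacZ-negative cells, which can be a failed estimate. Of the other 7, Cd34 (-1.21), Lhx2 (-0.74), Sox9 (-0.52) and Tcf7l1 (-0.26) had log2 differences below 0. Lgr5 and Nfatc1 (both 0.09) and Itga6 (0.05) lay just above it. Cd34 stood at 223 FPKM in LacZ-positive cells and at 516 in LacZ-negative ones. The 4 melanocyte markers, 2 of which reached 1 FPKM, summed to 17.9 and 13.5. The 4 fibroblast markers, 2 of which reached 1 FPKM, summed to 8.69 and 17.5, with Lum listed at 0 in LacZ-positive cells. Of the 5 muscle, fat and blood markers only Hba-a1 reached 1 FPKM, at 20.4 and 19.2. The part of these cells in the lower ribosomal protein levels was not tested.

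Among the members of the second pair, Rps4y2 and Rpl27 differed most by their own rows. Between 86.4% and 88.6% of the Rpl27 FPKM of a library lay in rows of its -ps copies, and with these added its difference was -0.43. Rpl27, a large subunit protein, stood at 122 FPKM in LacZ-positive cells against 196 in LacZ-negative cells (-0.68), with 128 in cKO and 111 in Het. Rpl38, the large subunit protein whose loss in mice disturbs Hox mRNA translation and the axial skeleton, stood at 450 and 664 in the LacZ cells (-0.56) and at 601 and 526 in cKO and Het (0.19). Rpl35 differed by -0.58 here. Nearest to 0 by its own row, Rpl10, which joins the large subunit late in its assembly, stood at 529 and 563 (-0.09). Rps2 stood at 140 and 151 FPKM (-0.11), and Rpl15 at 284 and 308 (-0.12). With -ps copies added, Rpl10 was at -0.15, Rps2 at -0.11 and Rpl15 at -0.13. After rescaling without mitochondrial and small RNA names these 3 were higher in LacZ-positive cells (0.20, 0.18 and 0.17), while Rpl27 (-0.40), Rpl38 (-0.27), Rpl35 (-0.29) and Rps4y2 (-0.44) stayed lower.

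The stalk proteins, which recruit the elongation factors, were spread over the range of the members in the second pair. Rplp0, its base, stood at 1074 FPKM in cKO, 962 in Het, 1454 in LacZ-positive cells and 1614 in LacZ-negative ones (0.16 and -0.15). Rplp1 stood at 1963, 1775, 2156 and 2457 (0.14 and -0.19), and its partner Rplp2 at 596, 497, 496 and 717 (0.26 and -0.53). By its own row Rplp2 thus lay near the low end of all members in LacZ-positive cells while the other stalk proteins lay near the high end. Between 69.8% and 72.0% of the Rplp2 FPKM of a library lay in its -ps copy, and with this added its second-pair difference was -0.45. Rpsa, the small subunit protein also known as the laminin receptor, stood by its own row at 269, 253, 256 and 316 FPKM (0.09 and -0.31), close to the median member in the second pair. Between 74.5% and 78.1% of the Rpsa FPKM of a library lay in its -ps copy. With this added its differences were 0.14 and -0.34.

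Of the 81 members, 78 were higher in cKO than in Het and lower in LacZ-positive than in LacZ-negative cells as deposited, against 42.3% of the 12499 genes measured in both pairs. Above the centre of the first pair and below that of the second lay 66 members, against 24.9% of these genes. With rescaled totals 38 members, against 18.3%, were higher in cKO and lower in LacZ-positive cells. The sizes of the differences in the 2 pairs, which share no library, were nearly unrelated across members: Pearson's r was 0.17 over 81 genes and Spearman's rho -0.18. Without Rpl35 and Rpl29 Pearson's r was -0.22 over 79 genes. The 13 members whose annotated start is at C in a C and T run had medians of 0.19 and -0.35 in the 2 pairs, and the 46 measured members with a window but no such start 0.16 and -0.31.

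**Figure D3:**
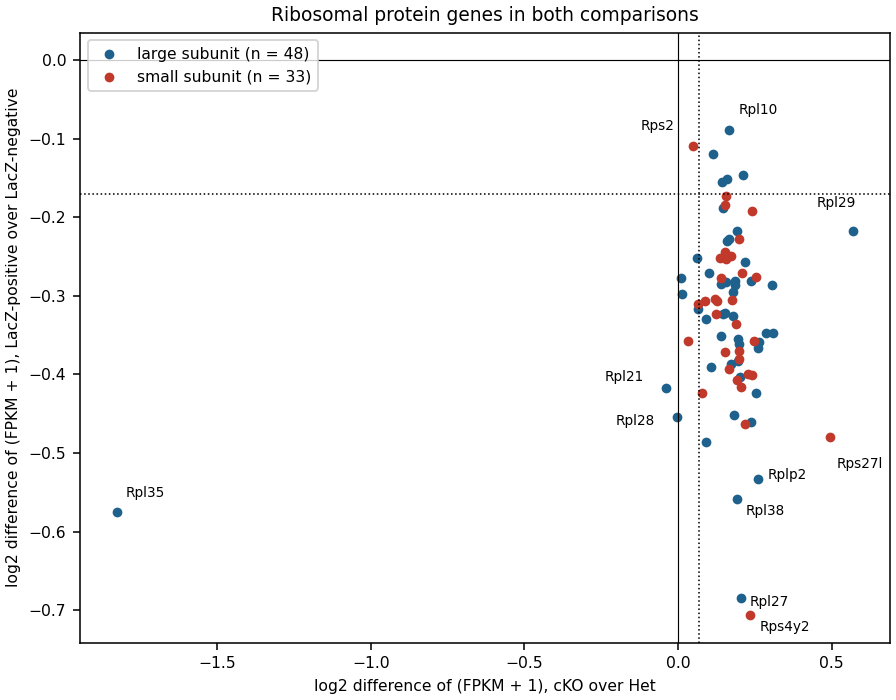
Log2 difference of (FPKM + 1) of each of the 81 measured ribosomal protein genes in cKO over Het (x axis) and in LacZ-positive over LacZ-negative cells (y axis), coloured by subunit; dotted lines mark the median of genes that reach 5 FPKM in each library of the pair (0.07 and -0.17). As deposited 78 genes lie right of 0 and below 0, of which 66 are also beyond both dotted lines, and Rpl35 lies alone at the far left; with rescaled totals 32 genes lie above 0 on the y axis.

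Paralogs of canonical proteins were set against their partners within each library, where a common scaling cancels. Rpl22l1, which is known to be able to take the place of Rpl22, stood at 115.4 FPKM in cKO, 114.6 in Het, 184 in LacZ-positive cells and 224 in LacZ-negative ones. Relative to Rpl22 it was 12.2% in cKO, 15.0% in Het, 24.7% in LacZ-positive cells and 23.6% in LacZ-negative ones. In the first pair Rpl22 was higher in cKO and its paralog was nearly level, so that the ratio was 0.81 times that of Het. Rps27l stood at 55.7% of Rps27 in cKO, 45.1% in Het, 52.8% in LacZ-positive cells and 55.6% in LacZ-negative ones, so the Het library was the lowest of the 4. Rpl36al stood at 50.6% and 49.8% of Rpl36a in cKO and Het, and at 65.7% and 68.7% in the LacZ libraries. Rpl7l1 stayed between 1.27% and 1.51% of Rpl7. Rps4y2, at 12.5, 10.5, 16.7 and 27.9 FPKM, stood between 0.665% and 1.54% of Rps4x, and shares its interval with Tmtc1.

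Between the 2 pairs, members were compared by their share of the summed ribosomal protein FPKM, since the tables were normalized separately. Genes whose shares in both LacZ libraries were at least 1.25 times those in both cKO and Het, or at most 0.8 times, were singled out after the values were seen. Rpl29, Rpl22l1, Rpl36al, Rplp0 and Rps4y2 had higher shares, and Rpl34, Rpl35a and Rps21 lower ones. The widest gap was that of Rpl29, at 2.00 and 1.02 FPKM in cKO and Het and 32.3 and 37.7 FPKM in the LacZ libraries. Rplp0 held 1.6% of the sum in both cKO and Het, against 2.4% in LacZ-positive cells and 2.1% in LacZ-negative ones. Rpl34 held 0.954% and 0.898%, and then 0.582% and 0.626%. Rps21 held 1.36% and 1.33%, and then 1.00% and 1.04%. The pairs differ in sex, age, strain, genotype and table, and these cannot be told apart.

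**Figure D4:**
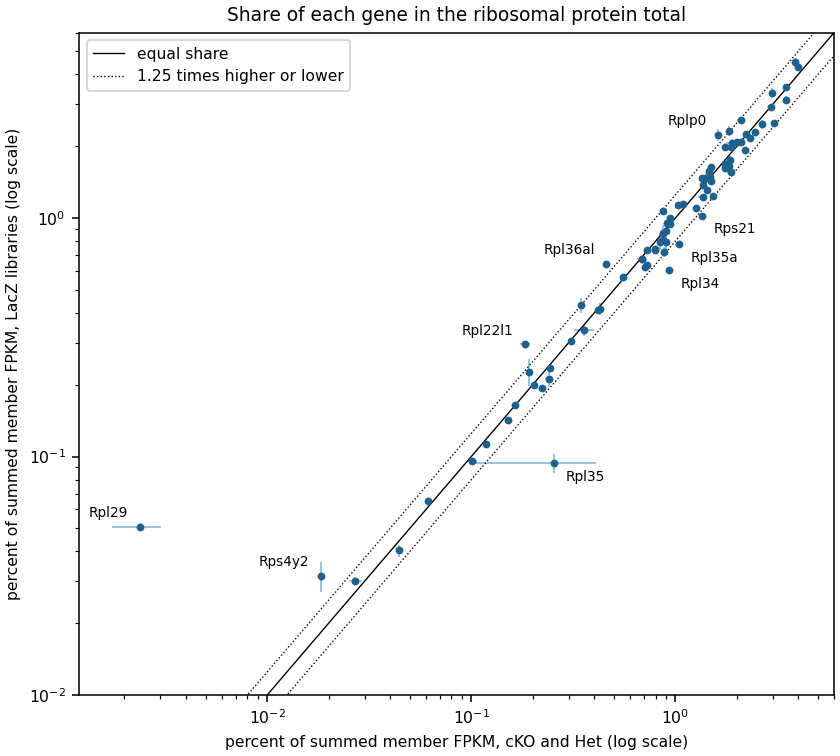
Share of each of the 81 measured ribosomal protein genes in the summed FPKM of all members (percent, log scales), as the mean of cKO and Het (x axis) against the mean of the 2 LacZ libraries (y axis); bars span the 2 libraries. Most genes lie between the dotted lines at 1.25 times, Rpl29 lies far above the line of equal share, and the long bar of Rpl35 spans 0.101% (cKO) to 0.407% (Het).

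Processed copies bear on these levels, because ribosomal protein genes have near-identical pseudogenes to which reads can be assigned. The tables hold 54 rows named as -ps copies of 31 members, of which 35 reached 1 FPKM and 24 reached 100 FPKM. They held between 17.2% and 17.6% of the FPKM of members and copies together. The rows Rps19-ps1 and Rps19-ps2 had equal values in every library, and both were counted. Whether they hold the same signal was not tested. For 10 members the copies held more FPKM than the member in every library. Rps27a, whose product is made as a fusion with ubiquitin, stood at 492, 420, 441 and 582 FPKM in cKO, Het, LacZ-positive and LacZ-negative cells, and its copy at 1495, 1262, 1295 and 1636. Rpl10 stood at 560, 499, 529 and 563 and its copy at 1399, 1201, 1307 and 1471. The levels of such members are therefore uncertain, and so is the order of members by level. Differences of the copies were close to those of the members, with medians of 0.19 and -0.28 over 34 measured rows in the 2 pairs. With copies added to their member, the difference of Rpl27 in the second pair was -0.43 instead of -0.68, while the medians over all members were 0.18 and -0.32. The copies of Rpl29 summed to at most 1.93 FPKM.

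Ribosomal proteins whose names fall outside the rule differed in the same directions as deposited. Fau, the precursor of a small subunit protein, stood at 184 FPKM in cKO, 167 in Het, 169 in LacZ-positive cells and 235 in LacZ-negative ones (0.14 and -0.47). Gnb2l1 (Rack1), a scaffold on the small subunit, differed by 0.11 and -0.18, and by 0.02 and 0.11 with rescaled totals. The 76 mitochondrial ribosomal proteins, which serve translation inside mitochondria, had medians of 0.13 in the first pair and -0.38 in the second. Of these genes 58 were higher in the first pair (60.9% of all genes were) and 74 lower in the second (63.4% were). With rescaled totals the medians were 0.04, with 47 higher (44.4% of all genes were), and -0.10, with 55 lower (36.1% were). The outermost of these were Mrpl18 (-0.53), Mrps23 (0.46) and Mrpl49 (0.45) in the first pair and Mrps12 (-0.77), Mrps9 (-0.67) and Mrpl47 (-0.66) in the second. None of these genes passed 2-fold in either pair.

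By the medians of their lists, genes that act with the ribosome differed less from the centre. Of 8 measured elongation genes 7 were higher in cKO (median 0.12), against 60.9% of all genes. All 8 were lower in LacZ-positive cells (-0.19), against 63.4%. By summed FPKM the elongation genes were 1.21 times higher in cKO, more than the 1.12 times of the members. In LacZ-positive cells their sum was 0.84 times that in LacZ-negative cells, against 0.80 times for the members. Eef1a1, which brings aminoacyl-tRNA to the ribosome, stood at 5703, 4733, 5477 and 5965 FPKM, and Tpt1, another TOP mRNA, at 5445, 4207, 4432 and 5847 (0.37 and -0.40). Of 27 initiation factor genes 22 were higher in cKO (0.11) and 23 lower in LacZ-positive cells (-0.19), with Eif3h at 0.35 and -0.51 and Eif6, which keeps the subunits apart, at -0.56 in the second pair. After centring, 4 elongation and 15 initiation genes lay below 0 in the second pair (45.8% of all genes did). In the first pair 6 and 17 of them lay above 0 (47.6% of all genes did). The 32 ribosome biogenesis genes had medians of 0.05 and -0.17, near those of all genes, with Rrp9 at 0.35 and Wdr12 at -0.27 in the first pair and Dkc1 at 0.56 and Rrp1 at -0.55 in the second. The 25 measured RNA polymerase I and III genes had medians of 0.06 and -0.22. With rescaled totals the second-pair medians of the elongation, initiation, biogenesis and polymerase lists lay above 0, between 0.06 and 0.11. In the first pair the medians of the biogenesis and polymerase lists were -0.04 and -0.03 with rescaled totals.

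Regulators of ribosomal protein mRNAs went in both directions in the first pair and were mostly higher in LacZ-positive cells in the second. Their medians were 0.02 (-0.07 with rescaled totals) over 17 genes in the first pair, where 10 were higher in cKO (60.9% of all genes were). In the second pair the median was 0.07 over 16 genes, of which 12 were higher in LacZ-positive cells (36.6% of all genes were). With rescaled totals the second-pair median was 0.34, with 14 of the 16 higher (63.9% of all genes were) and 1 past 2-fold. Mycn, a transcription factor that promotes ribosome production, stood at 0.542 FPKM in cKO and 3.14 in Het (-1.42), and was the single gene of this list past 2-fold as deposited. Its relative Myc stood at 31.4 and 27.9 FPKM (0.16), and at 30.3 and 39.2 in LacZ-positive and LacZ-negative cells (-0.36). Cnbp, a protein that binds TOP mRNAs, differed by 0.07 and -0.35 in the 2 pairs. Its first-pair difference lay close to the median (0.07) of genes that reached 5 FPKM in both libraries. Tia1, a protein that binds TOP mRNAs under stress, stood at 41.0, 52.5, 73.1 and 42.8 FPKM (-0.35 and 0.76), and Mtor, the kinase, at 7.85, 10.6, 9.79 and 9.19 (-0.39 and 0.08).

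Cell cycle genes differed far more, and in the other direction. Their median was -1.67 in cKO over Het, with 7 of 9 lower by 2-fold or more (2.29% of all genes were). In LacZ-positive over LacZ-negative cells it was 2.44, with 8 of 9 higher by 2-fold or more (4.67% of all genes were). These are low genes, and the sizes depend on the pseudocount: with 0.1 the medians were -2.52 and 2.77, and with 5 they were -0.76, with 2 of 9 past 2-fold, and 1.40, with 7 of 9. Top2a, which untangles replicated DNA, stood at 1.11, 11.6, 38.3 and 6.42 FPKM in cKO, Het, LacZ-positive and LacZ-negative cells. The libraries with the higher cell cycle levels, Het and LacZ-positive, were those with the lower ribosomal protein FPKM of their pair as deposited. By share of all FPKM the order turns in the second pair, with 6.14% in LacZ-positive cells and 5.80% in LacZ-negative ones, and with rescaled totals the ribosomal protein median of that pair was -0.03.

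**Figure D5:**
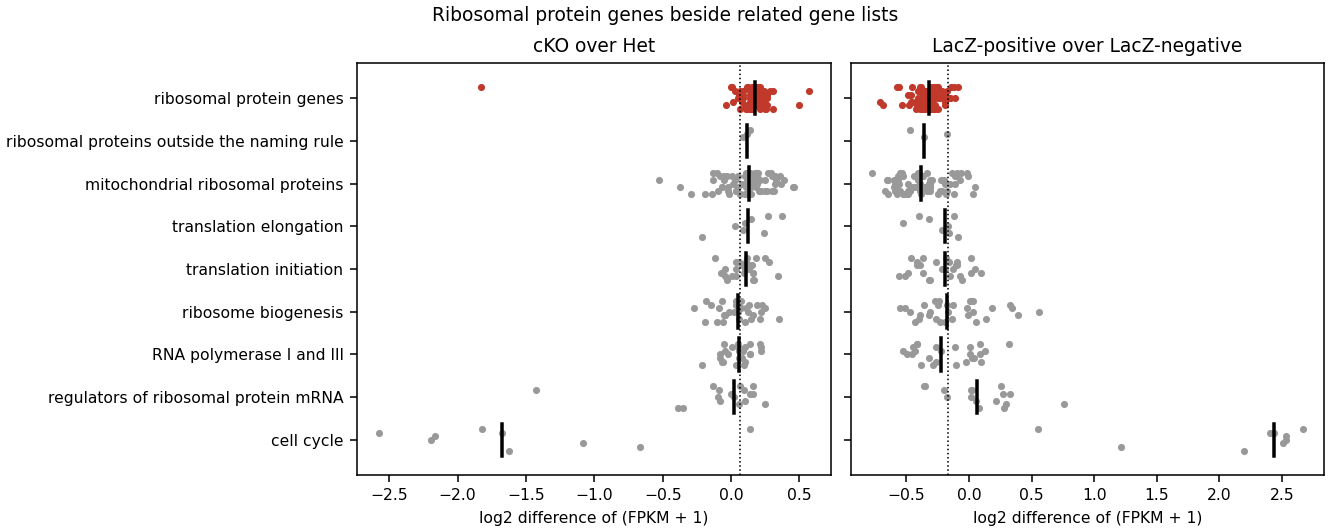
Log2 difference of (FPKM + 1) of every measured gene (points) of the ribosomal protein genes (red) and of 8 related lists (grey), with the median of each as a bar and the median of genes that reach 5 FPKM in each library of the pair as a dotted line, for cKO over Het (left) and LacZ-positive over LacZ-negative (right). The ribosomal protein genes form a narrow cluster around 0.17 and -0.32 as deposited (-0.03 in the second pair after rescaling), while cell cycle genes lie around -1.67 and 2.44.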

How the data were processed

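The authors' values are FPKM, per the file headers, in 2 gene tables of 32091 rows, 1 for each pair of libraries. The first also holds a log2 fold change of cKO over Het. The deposited log2 fold change of the authors equalled that computed from the FPKM columns to within 0.01 for 81 of 81 members above 0 in both libraries, and served only as this check. Tools named in the submitters' processing notes are Cufflinks 2.1.1, TopHat and TopHat2 2.0.4, and builds named there are GRCm38 and mm9, with no roles. The sources used here do not give how reads that fit several copies were assigned, or whether strand was used. Per the labels' protocols, libraries were made with Illumina's TruSeq mRNA kit from RNA of sorted cells. FPKM divide by a library total, so a few very abundant features shift all other values, and depth is unknown.

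Rows of one symbol were summed. Small RNA names were recognised by how they begin. Names that begin with mmu-mir were missed, so they stayed in the rescaled totals and among the other abundant genes. The difference of log2(FPKM + 1) was computed within each pair for genes that reached 1 FPKM in one of its libraries. This scale understates the changes of low genes. No test was run, because each group has 1 library. A difference of 1 or more in size was counted as 2-fold. Of the 84 members, 46 share their interval (mm9 coordinates of the tables) with another row. Analyses used Python 3.11.15, pandas 2.3.3 and numpy 2.4.6, and the steps were tested on simulated data. The members and lists were chosen with earlier results of these data known. Named members were those past 2-fold, the 5 highest and 5 lowest differences of each pair at 5 FPKM or more and above 0 in both libraries, the 5 highest and 5 lowest mean levels, those listed at 0, the stalk and paralog genes and Rpsa. Of each related list the 3 largest differences in each pair could be named. Other members named (Rpl7a, Rpl34, Rps21, Rpl5, Rpl18, Rps18, Rps27a and the paralogs' partners Rps27, Rpl36a, Rpl7 and Rps4x) were chosen after their values were seen, as were the bulge markers named. The values of some single genes are not reported here. Alternatives were other pseudocounts and minimums, 3 other scalings, the highest row per symbol, members without paralogs, without zeros or alone in their interval. Adding -ps rows to their member and a minimum of 100 FPKM were chosen after seeing the data.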

Additional observations from a re-analysis of the deposited data

How the results depend on the processing

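The median log2 difference of the ribosomal protein genes ranged from 0.08 to 0.18 in cKO over Het and from -0.35 to -0.03 in LacZ-positive over LacZ-negative cells over the alternatives run. No median of the set and no difference past 2-fold changed sign, while Rpl10, Rps2 and Rpl15, among others, changed sign in the second pair after rescaling. With only genes alone in their interval (35 measured), 34 members were higher in cKO and 0 were lower by 2-fold, because Rpl35 is not among them. In the second pair 1 member was higher with no minimum. Centred on the median of genes at 5 FPKM or more, the median was -0.15, the log2 ratio of summed FPKM -0.15 and 6 members were higher in LacZ-positive cells. With upper-quartile scaling these were -0.18, -0.18 and 3, and with totals rescaled without mitochondrial and small RNA names -0.034, -0.033 and 32. Of the other alternatives' values, 108 for the whole set stayed within 0.1 on the log2 scale or 1.5 times of a count. With 1 library per group no replicate spread sets these tolerances and no library could be left out. FPKM give no depth, so counting error is unknown, and members with -ps copies may hold reads of the copies or the reverse. No paired analysis was possible because each group has 1 library.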
